A study of Mus musculus with 4 samples.

Results

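Fc receptors, TREM receptors, Siglecs and other paired immune receptors were followed, with the adaptors and enzymes that carry their signals, in myeloid cells sorted from skin tumours. The list held 42 genes. Of these, 41 were found in the table under the listed symbol and 1, Siglecf, under its synonym Siglec5. A normalised read count of at least 10 in at least 2 of the 4 libraries was required, which 41 of the 42 met, out of 12463 genes tested in all. Each of the 41 reached that level in both groups, and the gene below it was Siglech.

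The cells were positive for CD11b, a myeloid integrin, and for CD200R1, the receptor of the surface protein CD200. Their source was the orthotopic cutaneous squamous cell carcinoma, a skin tumour, of mice on the FVB/N background. The WT group (2 libraries) is labelled wild type and the EpiKO group (2 libraries) K14Cre;CD200fl/fl, where Cre under the keratin 14 promoter removes Cd200 from keratinocytes. The labels do not say whether the host, the tumour or both carried these alleles. The comparison asks which genes of the sorted cells differ when epidermal CD200 is missing. The labels used here give no age, and whether the replicates are separate mice or pools is not given, so the p-values cover only the spread among these libraries, which could be technical.

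As background, the receptors on such cells come in activating and inhibitory forms. Activating receptors have short tails and borrow an adaptor, Fcer1g (the Fc receptor gamma chain), Tyrobp (DAP12) or Hcst (DAP10). Fcer1g and Tyrobp carry a tyrosine motif called ITAM, which recruits the kinase SYK. Most inhibitory receptors carry the related ITIM motif in their own tail. Many of these recruit the phosphatases SHP1 and SHP2, encoded by Ptpn6 and Ptpn11. CD200R1 is itself an inhibitory receptor, but it signals through DOK adaptors and not through an ITIM. In macrophages these receptors sense antibody complexes, lipids, sialic acid and collagen, and in osteoclasts ITAM adaptors give the co-stimulation that leads to Nfatc1.

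Depth was 15884132 to 21244158 reads assigned to genes per library, and 1 read stood for a normalised count of 0.841 to 1.16. Macrophage markers were abundant in every library, with the 10 markers found summing to 544739 and 440511 in WT against 597279 and 555951 in EpiKO, so that the EpiKO sums were the higher ones. Fibroblast markers were present in every library, with the 8 markers summing to 18310 to 31582. Dendritic cell markers, 10 in all, summed to 1588 and 840 in WT against 187 and 362 in EpiKO. Cd207, the Langerhans cell lectin, made 1201 and 590 of the WT sums against 23.7 and 23.6 in EpiKO, and the part of such cells in the results was not tested. Markers of some other cell types are given beside the genes they touch. Keratinocyte markers were high in WT replicate 1, where the 12 markers had a median of 464, against 3.77 to 5.04 in the other 3 libraries. Their sum was 6207 and 317 in WT against 2066 and 4225 in EpiKO, where Krt8 alone made 1999 and 4164 of the EpiKO sums, against 446 and 234 in WT. Cd200 itself stood at 92.7 and 59.7 in WT against 17.2 and 15.1 in EpiKO. The sorted cells are not the target of K14Cre, so this does not check the labels. The part of keratinocyte RNA in these values, which was high in WT replicate 1, was not tested.

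No member of the set passed the test between EpiKO and WT. With limma and Benjamini-Hochberg adjustment over all genes, 0 of 41 were called, where 0.947% of all tested genes were (0.417% higher and 0.53% lower in EpiKO). Unadjusted p was under 0.05 for 10 of 41, 7 of them higher and 3 lower in EpiKO, which is 24.4% against 15.6% of all tested genes (8.07% higher and 7.57% lower). With edgeR on the recovered reads 0 of 41 were called, against 0.842% of all genes (0.385% higher and 0.457% lower). With DESeq2 on the same reads 7 of 41 were called, 4 higher and 3 lower, which is 17.1% against 6.85% of all genes (3.73% higher and 3.12% lower). These 7 were Fcgr3, Siglecf, Pilrb1 and Cd300lf on the higher side and Cd72, Slamf7 and Slamf9 on the lower side.

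The 2 groups did not overlap for 18 of the 41 genes, or 43.9%, which is close to the 47.1% of all tested genes. Of the 18, 11 lay higher and 7 lower in EpiKO, where 23.3% and 23.8% of all tested genes did. The median log2 fold change of the set was 0.08, against -0.0021 for all tested genes, with 24 genes at positive and 17 at negative values. The median absolute log2 fold change was 0.39, against 0.18 for all tested genes. An absolute log2 fold change above 1 was found for 4 of the 41, Siglecf, Pilrb1, Cd72 and Slamf7, where 8.99% of all tested genes reached it. In bulk libraries such as these, fewer cells of a type and less RNA per cell cannot be told apart.

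**Figure D1:**
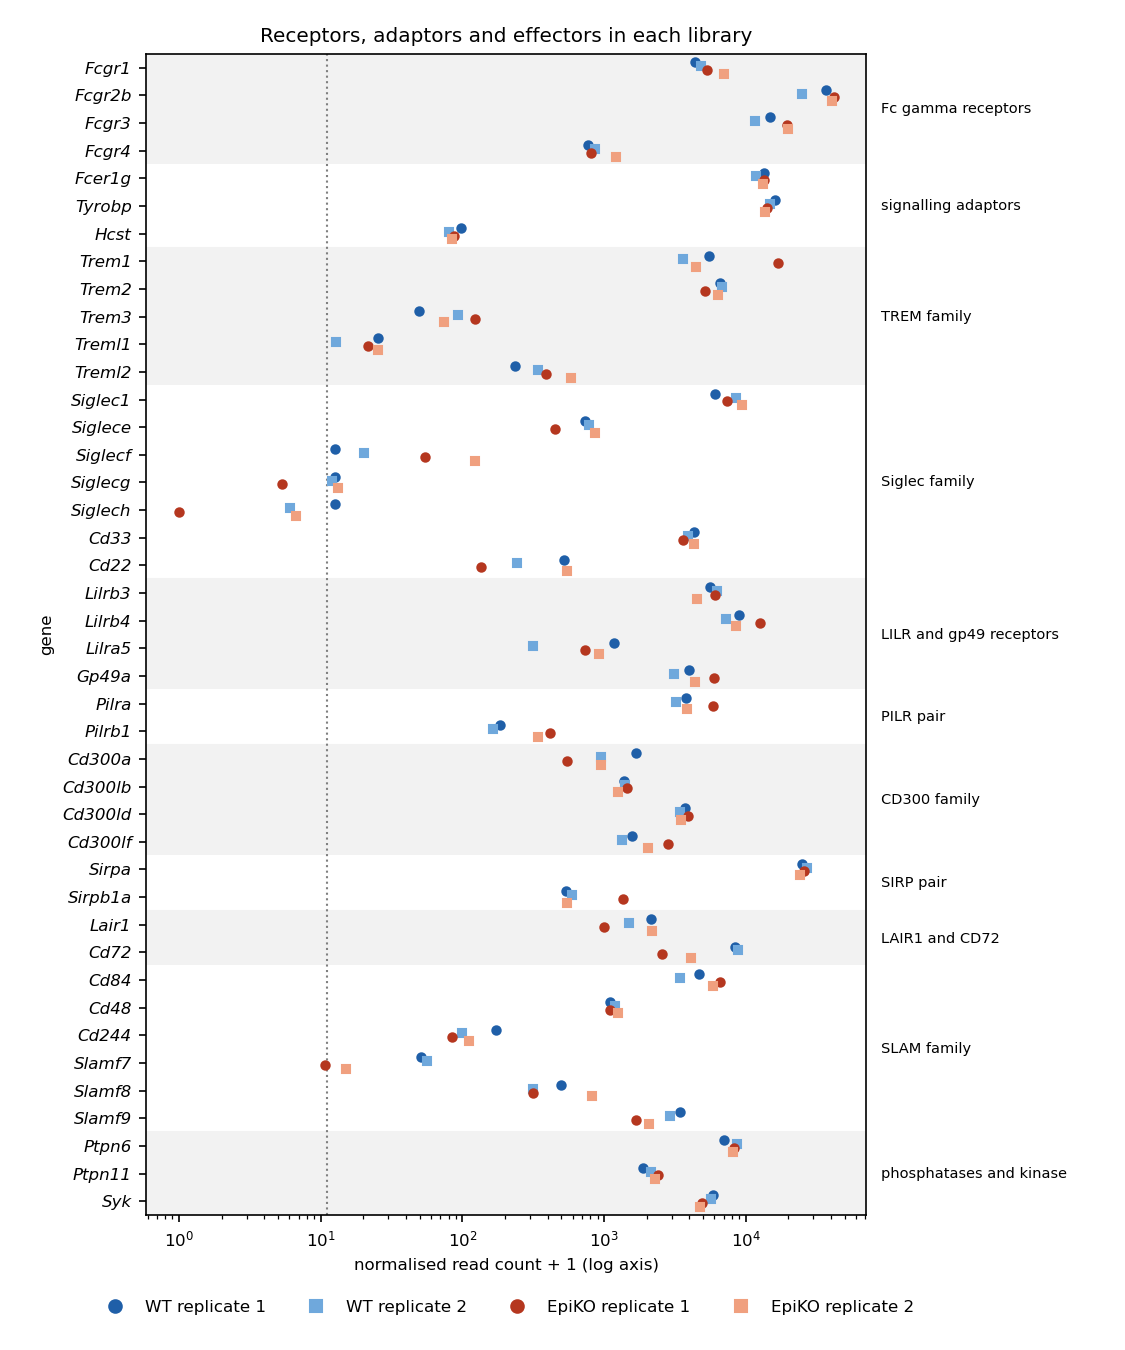
Normalised read count plus 1 (log axis) of the 42 genes, in families, with 1 point per library for WT and EpiKO. The dotted line marks the minimum of 10, and Cd72, Slamf7, Slamf9, Siglecf and Pilrb1 show groups that do not overlap, whereas Trem1 and Sirpb1a stand out in EpiKO replicate 1 alone.

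Tyrobp and Fcer1g, the ITAM adaptors, were abundant and close between the groups, as were the downstream enzymes Syk, Ptpn6 and Ptpn11. Tyrobp had normalised counts of 16191 and 14843 in WT against 14218 and 13611 in EpiKO. Its log2 fold change was -0.16 (95% interval -0.47 to 0.16, limma adjusted p = 0.633). Both EpiKO libraries lay slightly below both WT libraries. Fcer1g stood at 13475 and 11784 in WT against 13430 and 13289 in EpiKO, with overlapping groups and a log2 fold change of 0.08 (95% interval -0.24 to 0.41). Hcst, the DAP10 adaptor that couples to PI3-kinase, was scarce, at 97.4 and 79.9 in WT against 86.1 and 83.2 in EpiKO. Tyrobp and Hcst are neighbours on chromosome 7 of mm10, at 30413760 to 30417585 on the plus strand and 30417712 to 30419854 on the minus strand.

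Syk, the kinase that docks on phosphorylated ITAMs, was at 5831 and 5641 in WT against 4912 and 4776 in EpiKO. Replicates were close and the groups did not overlap, but the log2 fold change of -0.24 (95% interval -0.51 to 0.026) did not pass (limma adjusted p = 0.365). Ptpn6 (SHP1) was at 7025 and 8713 in WT against 8213 and 8082 in EpiKO, with overlapping groups. Ptpn11 (SHP2) was at 1890 and 2156 in WT against 2403 and 2303 in EpiKO, giving a log2 fold change of 0.22 (95% interval -0.077 to 0.52). For Tyrobp, Fcer1g, Syk, Ptpn6 and Ptpn11 the interval leaves out a doubling or a halving, which lie at 1 and -1 on the log2 scale.

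Levels of different genes were set side by side per kb of merged exons in GENCODE M21. On this scale Tyrobp led at a mean of 22062 per kb over the 4 libraries, followed by Fcer1g at 14868, Fcgr3 at 9509, Fcgr2b at 6222 and Sirpa at 5225. Over the 4 libraries Tyrobp did not overlap with Fcer1g, nor Fcer1g with Fcgr3, whereas Fcgr3 overlapped with Fcgr2b and Fcgr2b with Sirpa. Within every single library Fcgr3 still lay above Fcgr2b. Fcgr2b lay above Sirpa except in WT replicate 2, at 4310 against 5551 per kb. Far below came several receptors best known from B cells and natural killer cells, with Cd22 at 71.6 per kb, Cd244 at 23.8, Slamf7 at 7.06 and Siglecg at 2.03, although Cd72 stood at 1735. Siglech, a receptor of plasmacytoid dendritic cells, had 10 and 6 reads in WT, against 0 and 6 in EpiKO. The 9 plasmacytoid dendritic cell markers summed to 4607 to 5072 per library, mostly Tcf4 and Bst2, and 3 of them never reached 10. A count of 3 reads stands for a normalised count of 2.52 to 3.48, so the library without a read allows a level of up to 3.23, counting error only.

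**Figure D2:**
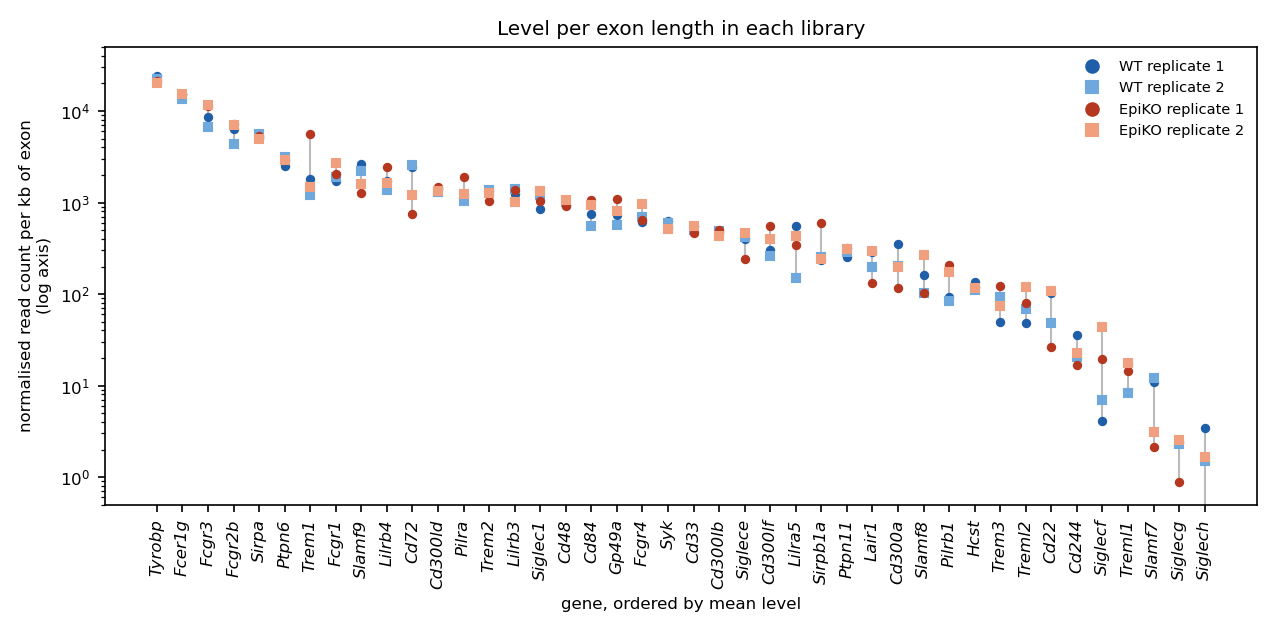
Normalised read count per kb of merged exon (log axis) of each of the 42 genes, ordered by the mean over all libraries, with 1 point per library and a line over the range. Levels run from 22062 per kb for Tyrobp to 1.65 for Siglech, and most neighbours in the order overlap.

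Among the Fc gamma receptors, which bind the constant part of IgG, all 4 had a positive log2 fold change, and none passed with limma. The summed macrophage markers given above were also higher in both EpiKO libraries, and their part in these values was not tested. Fcgr3, the activating receptor that pairs with Fcer1g, was at 14869 and 11571 in WT against 19630 and 19962 in EpiKO. Both EpiKO libraries lay above both WT libraries, and the log2 fold change was 0.59 (SE 0.162, limma adjusted p = 0.178, DESeq2 adjusted p = 0.0291). Fcgr2b, the inhibitory Fc gamma receptor, was the most abundant gene of the set by count, at 36724 and 24956 in WT against 41651 and 40776 in EpiKO. Its groups did not overlap either, but WT replicates differed from each other by more (0.56 on the log2 scale) than the groups did (0.44, limma adjusted p = 0.409).

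Fcgr1, the high-affinity receptor, stood at 4406 and 4865 in WT against 5305 and 7051 in EpiKO, giving a log2 fold change of 0.40 (95% interval -0.032 to 0.84). Fcgr4, an activating receptor of mouse myeloid cells, stood at 764 and 869 in WT against 814 and 1221 in EpiKO, and its groups overlapped. Fcgr2b, Fcgr3 and Fcgr4 lie in a cluster on chromosome 1 between 170958617 and 171064935 of mm10. Of the 50-base stretches of Fcgr3 transcripts, 9.58% also occur in Fcgr2b, so a small share of their reads may be split or dropped. The ratio of inhibitory Fcgr2b to activating Fcgr3, per kb, was 0.741 and 0.647 in WT against 0.636 and 0.612 in EpiKO. These ratios do not depend on how libraries are scaled. The EpiKO values lay below the WT values, by less than the WT replicates differed from each other. Over Fcgr1, Fcgr3 and Fcgr4 together, the ratio of Fcgr2b was 0.583 and 0.467 in WT against 0.514 and 0.463 in EpiKO, and the groups overlapped.

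The PILR pair showed the smallest p of the set. Pilrb1, the activating member, which couples to Tyrobp, had normalised counts of 182 and 164 in WT against 411 and 338 in EpiKO. Each EpiKO library was above each WT library, and replicates were close. The log2 fold change was 1.11 (SE 0.172, 95% interval 0.67 to 1.54, limma adjusted p = 0.0647, DESeq2 adjusted p = 8.07e-04). Pilra, its ITIM-bearing inhibitory partner, was at 3776 and 3211 in WT against 5843 and 3868 in EpiKO, giving a log2 fold change of 0.45 (limma adjusted p = 0.435). Pilra thus stayed the more abundant, with a per-kb ratio of Pilra to Pilrb1 of 13.1 and 12.4 in WT against 9.0 and 7.24 in EpiKO. With 2 libraries per group an exact permutation test of such a ratio cannot give a p below 0.33.

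Pilrb1 is on chromosome 5 of mm10, from 137852147 to 137858106. Of its 50-base transcript stretches 30.05% occur in other genes and 26.0% in the neighbouring copy Pilrb2, so its value is uncertain. Pilrb2 was at 395 and 233 in WT against 571 and 548 in EpiKO, giving a log2 fold change of 0.88 (limma adjusted p = 0.221). For both copies the EpiKO libraries were the highest.

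Cd72, an ITIM-bearing C-type lectin that binds CD100 and is best known as an inhibitory co-receptor of B cells, had the second smallest p. It stood at 8348 and 8753 in WT against 2562 and 4090 in EpiKO. The WT libraries agreed closely, and both EpiKO libraries lay at less than 0.5 of the WT level. The ratio of EpiKO to WT means was 0.389, with a log2 fold change of -1.40 (SE 0.238, 95% interval -2.01 to -0.79, limma adjusted p = 0.0809, DESeq2 adjusted p = 7.15e-06). Leaving out any 1 library gave log2 fold changes between -1.74 and -1.06, with an adjusted p of 0.0702 to 0.331 (limma).

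B cell markers were close to absent: of 10 markers 7 were below 10 in every library, and Pax5 and Blk were at 0. Their summed level was 108 and 89.9 in WT against 46.3 and 101 in EpiKO. Cd72 (mm10 chromosome 4, 43446462 to 43454628, minus strand) has a neighbour: 41.6% of its exon bases overlap exons of Tesk1, a kinase gene on the other strand. The kit named in the labels is not described as stranded, and reads there cannot be told apart if the counting ignored strand. The same holds for shorter shared stretches in Fcgr2b, Cd22, Lilrb4, Pilra, Pilrb1, Slamf7 and Ptpn6, which with Cd72 makes 8 members. Tesk1, picked here with its values already seen, was at 1791 and 1902 in WT against 1657 and 1805 in EpiKO, giving a log2 fold change of -0.09 (limma adjusted p = 0.763).

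Promoter sequences were read from RefSeq on GRCm38.p6, in a window that lies mostly before each start, where 36 of the 42 genes had an entry. The hexamer GAGGAA, which is part of the usual binding site of the myeloid factor PU.1, was searched on both strands. It was found at 24 of the 36 genes, or 66.7%, where any matching promoter counts for a gene. Counted by promoter it was found in 25 of 39, or 64.1%, against 28.3% of all 32851 promoters. The AP-1 type motif TGANTCA was found at 5 of the 36 genes, or 13.9%. Counted by promoter it was found in 5 of 39, or 12.8%, against 7.81% of all promoters. A match is only a run of letters and was not tested as a site. The promoters of Cd72 and Pilrb1 are shown because these genes had the smallest p in each direction, and that of Siglece because it held the hexamer 3 times, as did Lilrb3. Capitals mark GAGGAA read on the opposite strand, and Pilrb1 holds none. The windows are chr4:43454577-43454876, chr5:137858000-137858299 and chr7:43660112-43660411, all on the minus strand, written 5′ to 3′.
Cd72: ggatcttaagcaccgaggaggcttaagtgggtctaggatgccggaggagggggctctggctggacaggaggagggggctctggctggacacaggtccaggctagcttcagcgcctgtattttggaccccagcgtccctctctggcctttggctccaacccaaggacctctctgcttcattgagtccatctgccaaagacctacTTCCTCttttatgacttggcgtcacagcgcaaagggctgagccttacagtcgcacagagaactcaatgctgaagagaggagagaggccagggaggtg
Pilrb1: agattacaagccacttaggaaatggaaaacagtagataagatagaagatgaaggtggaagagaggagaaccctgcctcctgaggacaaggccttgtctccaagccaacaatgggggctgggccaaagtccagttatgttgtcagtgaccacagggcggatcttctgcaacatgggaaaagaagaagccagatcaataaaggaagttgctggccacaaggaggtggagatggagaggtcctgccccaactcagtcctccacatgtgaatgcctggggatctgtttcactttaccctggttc
Siglece: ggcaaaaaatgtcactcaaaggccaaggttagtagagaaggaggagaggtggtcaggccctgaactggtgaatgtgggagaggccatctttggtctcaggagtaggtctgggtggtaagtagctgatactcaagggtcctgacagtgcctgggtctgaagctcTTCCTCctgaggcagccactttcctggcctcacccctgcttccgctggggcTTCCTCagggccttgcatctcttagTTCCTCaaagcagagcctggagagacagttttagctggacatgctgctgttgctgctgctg

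**Figure D3:**
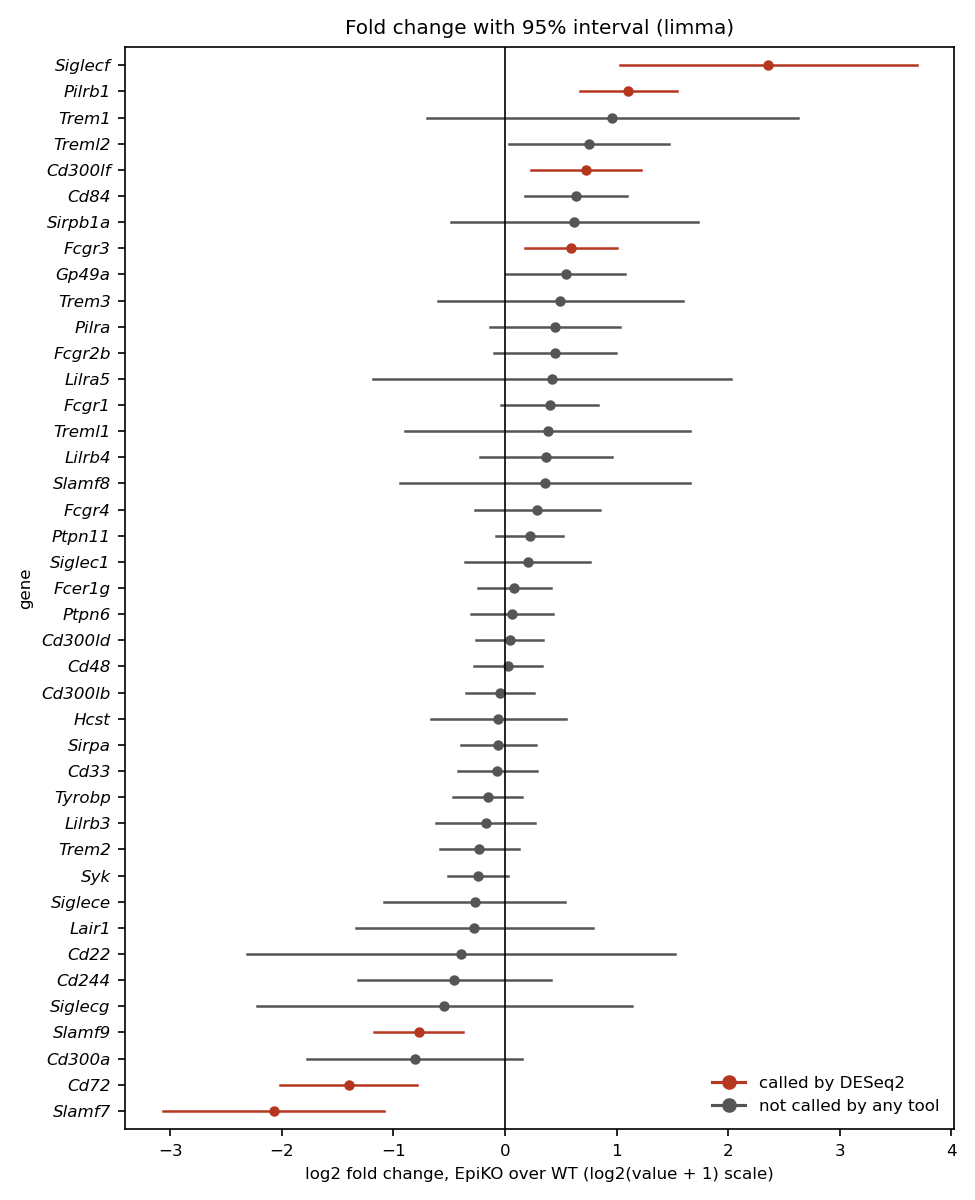
Log2 fold change of EpiKO over WT with its 95% interval by limma, on the log2(value + 1) scale, for the 41 tested genes. The interval leaves out 0 for 10 genes, and the 7 in red, from Siglecf at 2.36 to Slamf7 at -2.07, were called by DESeq2 while limma and edgeR called none.

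The SLAM family, receptors that mostly bind themselves or each other on neighbouring cells, had values on both sides of 0. Slamf9, a myeloid member with a short tail, stood at 3462 and 2921 in WT against 1672 and 2069 in EpiKO. The groups did not overlap, and the log2 fold change was -0.77 (SE 0.158, limma adjusted p = 0.107, DESeq2 adjusted p = 0.00359). Slamf7, a receptor of natural killer, plasma and activated myeloid cells, was scarce, at 49.8 and 55.5 in WT against 9.69 and 14.2 in EpiKO. Its log2 fold change of -2.07 (SE 0.390, limma adjusted p = 0.0907, DESeq2 adjusted p = 0.0170) rests on few reads. Cd84, a self-binding member of macrophages and platelets, lay on the higher side, at 4677 and 3442 in WT against 6623 and 5859 in EpiKO (log2 fold change 0.63, limma adjusted p = 0.191, DESeq2 adjusted p = 0.0516).

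Cd48 and its receptor Cd244 showed no such gap. Cd48 was at 1109 and 1203 in WT against 1100 and 1251 in EpiKO, and its log2 fold change of 0.02 (95% interval -0.28 to 0.33) turned to -0.0058 when library totals were made equal. Cd244 was at 173 and 99.2 in WT against 82.9 and 110 in EpiKO, and Slamf8, a negative regulator of the phagocyte oxidase, at 500 and 314 in WT against 314 and 823 in EpiKO. Both had overlapping groups. Natural killer and T cell markers were scarce apart from Cd4, which reached 1755 in WT replicate 1, Klrb1c and Lck. Of 12 such markers 9 were below 10 in every library, and their part in the values of Slamf7 and Cd244 was not tested.

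Siglecs bind sialic acid, and most carry ITIMs. Siglecf, the receptor of eosinophils and alveolar macrophages, was low, at 11.6 and 19.3 in WT against 53.8 and 122 in EpiKO. The EpiKO libraries were both above the WT libraries, with a ratio of means of 5.68 and a log2 fold change of 2.36 (SE 0.523, limma adjusted p = 0.124, DESeq2 adjusted p = 0.00456). Leaving out 1 library gave log2 fold changes between 1.78 (without EpiKO replicate 2) and 2.94 (without EpiKO replicate 1), and the WT values rest on 10 and 23 reads. Among 8 eosinophil markers, Epx and Ear6 were at 0 in every library and 4 in all never reached 10. Their sum was 134 and 133 in WT against 2290 and 105 in EpiKO, and the 2290 was made almost wholly by Ear1 at 2224. The part of eosinophils in Siglecf was not tested.

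None of the more abundant Siglecs passed with limma, and their groups overlapped. Siglec1, the long sialoadhesin of macrophages, which has no ITIM, was at 6115 and 8557 in WT against 7336 and 9447 in EpiKO. Its log2 fold change was 0.20 (95% interval -0.36 to 0.76). Cd33 was at 4328 and 3908 in WT against 3591 and 4289 in EpiKO, giving a log2 fold change of -0.07 (95% interval -0.42 to 0.28). Siglece, an inhibitory Siglec of myeloid cells, was at 733 and 777 in WT against 452 and 862 in EpiKO. Its log2 fold change of -0.27 (95% interval -1.08 to 0.54) turned to 0.19 without EpiKO replicate 1. Cd22, best known on B cells, was at 524 and 241 in WT against 135 and 544 in EpiKO, so that replicates differed by more than the group means. Siglecg, also of B cells, stayed near 10, at 11.6 and 10.9 in WT against 4.31 and 12.3 in EpiKO.

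The TREM and TREM-like genes lie together on chromosome 17, and Trem1, Trem2 and Trem3 encode receptors that couple to Tyrobp. Trem2, the lipid receptor of tissue and tumour macrophages, was at 6631 and 6802 in WT against 5167 and 6352 in EpiKO. The EpiKO libraries were slightly lower, with a log2 fold change of -0.23 (95% interval -0.59 to 0.13, limma adjusted p = 0.527). Trem1, which amplifies inflammatory signals in monocytes and neutrophils, was at 5466 and 3620 in WT against 16767 and 4472 in EpiKO. Only EpiKO replicate 1 was high, and without it the log2 fold change went from 0.96 to 0.0078. Neutrophil markers summed to 1542 and 3040 in WT and to 4532 and 2452 in EpiKO. In EpiKO replicate 1 the collagenase gene Mmp8 made 3757 of this, while S100a9 was at 38.8, and the part of neutrophils in Trem1 was not tested.

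The other TREM genes were low. Treml2 was at 235 and 340 in WT against 390 and 586 in EpiKO, giving a log2 fold change of 0.76 (95% interval 0.040 to 1.47, limma adjusted p = 0.294). Trem3, the neighbour and relative of Trem1, ranged from 48.7 to 123 with overlapping groups. Treml1, an ITIM-bearing platelet receptor, ranged from 11.8 to 24.6, also with overlap. Platelet markers summed to 4905 and 1987 in WT against 4966 and 5475 in EpiKO. Nearly all of this was Pf4, at 4495 and 1950 in WT against 4807 and 4966 in EpiKO, while Gp9 and Gp6 were at 0 in every library. The part of platelets in Treml1 was not tested.

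CD300 genes encode receptors for membrane lipids, and their values lay on both sides of 0. Cd300lf, an ITIM-bearing receptor for ceramide and sphingomyelin, was at 1574 and 1332 in WT against 2822 and 2036 in EpiKO. The groups did not overlap, with a ratio of means of 1.67 and a log2 fold change of 0.73 (SE 0.193, limma adjusted p = 0.173, DESeq2 adjusted p = 0.0242). Cd300a, an ITIM-bearing receptor for phosphatidylserine, was at 1675 and 954 in WT against 549 and 946 in EpiKO. WT replicate 2 and EpiKO replicate 2 were almost level, and the log2 fold change was -0.81 (limma adjusted p = 0.394). Without EpiKO replicate 1 it was -0.42. The activating receptors Cd300lb and Cd300ld had log2 fold changes of -0.05 (95% interval -0.35 to 0.26) and 0.04 (95% interval -0.26 to 0.34).

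Some receptors of the LILR and gp49 group bind MHC class I. Lilrb4, an ITIM-bearing receptor, was at 8994 and 7228 in WT against 12650 and 8573 in EpiKO. Gp49a, its partner without ITIM, was at 3956 and 3103 in WT against 5978 and 4355 in EpiKO, giving a log2 fold change of 0.54 (limma adjusted p = 0.312). The genes are near copies next to each other on chromosome 10. Of the 50-base stretches, 46.7% for Lilrb4 and 24.55% for Gp49a occur in other genes, so the split between them is uncertain. Lilrb3, known as Pirb, was at 5593 and 6271 in WT against 6070 and 4536 in EpiKO, and 34.0% of its stretches occur elsewhere. Lilra5, an activating receptor, was at 1180 and 316 in WT against 729 and 914 in EpiKO, so WT replicates differed by 1.90 on the log2 scale. Its log2 fold change of 0.42 turned to -0.53 without WT replicate 2.

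Sirpa, the ITIM-bearing receptor of the CD47 signal that restrains phagocytosis, was among the steadiest genes. It stood at 25118 and 27261 in WT against 25975 and 24282 in EpiKO, giving a log2 fold change of -0.06 (95% interval -0.39 to 0.28). Sirpb1a, the activating relative that couples to Tyrobp, was at 537 and 589 in WT against 1360 and 551 in EpiKO. As for Trem1, EpiKO replicate 1 alone was high, and the log2 fold change of 0.62 turned to -0.03 without it. Of the Sirpb1a stretches 40.4% occur in other genes. Its copy Sirpb1b, picked here with its values already seen, was at 141 and 118 in WT against 328 and 133 in EpiKO. Lair1, an inhibitory receptor for collagen, was at 2130 and 1492 in WT against 991 and 2192 in EpiKO, with overlapping groups.

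For 13 of the 41 tested genes the difference between group means was larger than the larger difference between replicates, and for 28 it was not. The same share was not computed over all tested genes, so these counts have no background to be read against. Among the 28, Cd22, Trem1 and Lilra5 had the widest gaps between replicates, at 2.01, 1.91 and 1.90 on the log2 scale. A gap above 1 was found for 8 genes.

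**Figure D4:**
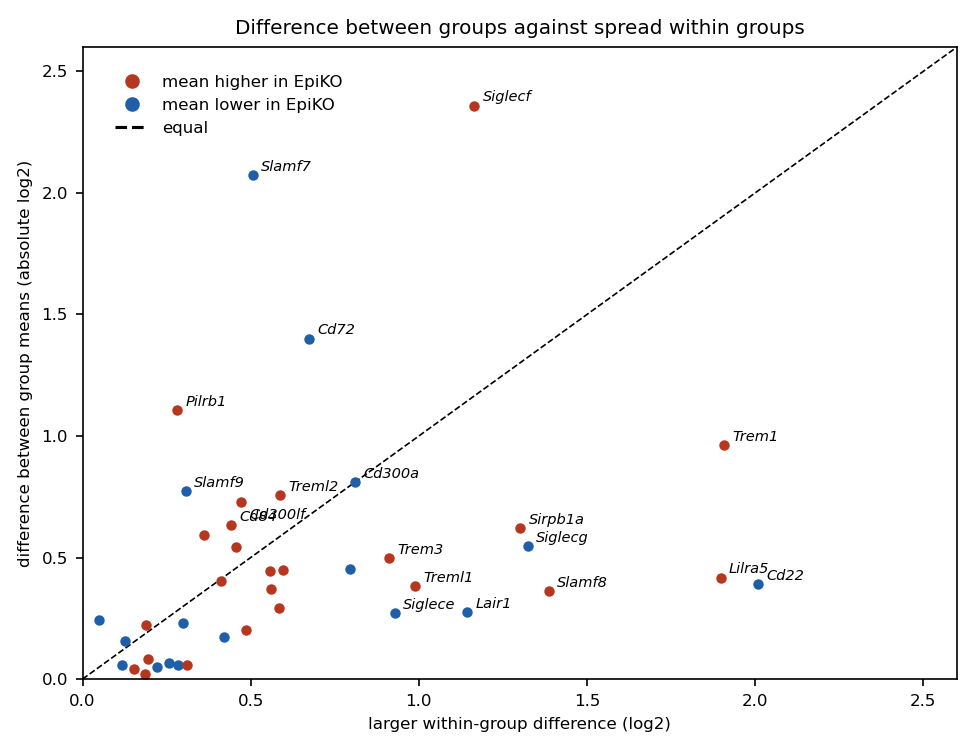
Absolute difference between the group means (log2) against the larger of the within-group differences (log2) for the 41 tested genes, coloured by direction. The 13 genes above the dashed line of equality include Slamf7, Cd72 and Pilrb1, and Cd22, Trem1 and Lilra5 lie farthest to the right.

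Ratios within a library were taken for 9 pairs, with no test. The ratio of Tyrobp to Fcer1g per kb was 1.57 and 1.65 in WT against 1.39 and 1.34 in EpiKO. That of the ITIM-bearing Lilrb4 to Gp49a was 2.37 and 2.42 in WT against 2.20 and 2.05 in EpiKO. For Cd300a over Cd300lf it was 1.16 and 0.778 in WT against 0.211 and 0.505 in EpiKO. The ratio of Sirpa to Sirpb1a was 21.8 and 21.6 in WT, with 8.91 and 20.6 in EpiKO. That of Ptpn6 to Ptpn11 was 9.94 and 10.8 in WT, with 9.14 and 9.38 in EpiKO. Groups overlapped for Trem1 over Trem2, at 1.36 and 0.878 in WT, with 5.36 and 1.16 in EpiKO.

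**Figure D5:**
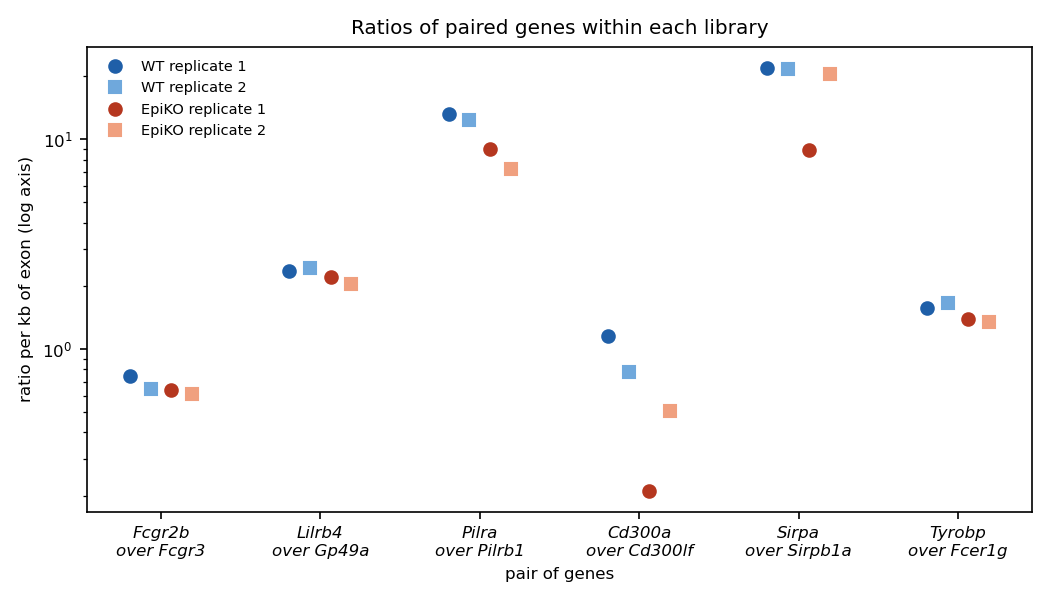
Ratio of normalised counts per kb of exon (log axis) for 6 pairs of genes, with 1 point per library. The ratio of Pilra to Pilrb1 was 13.1 and 12.4 in WT against 9.0 and 7.24 in EpiKO, while that of Sirpa to Sirpb1a was low in EpiKO replicate 1 alone.

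The rest of the pathway was read from lists of genes outside the set. Of 27 tested genes of ITAM and SYK signalling, limma called 1 lower, 0 higher and 26 in neither direction. The median log2 fold change of the list was -0.04, and limma called 0.947% of all tested genes in either direction. DESeq2 called 3 lower, or 11.1% against its 6.85% of all genes, namely Nfatc1, Pik3r5 and Blnk. The gene called by limma was Nfatc1, the calcium-driven factor at the end of ITAM co-stimulation, which fell by 1.61 on the log2 scale from 5911 ± 631 to 1931 ± 179 (SD, n = 2), with an SE of 0.136 and an adjusted p of 0.0334 by limma. Pik3r5, a regulatory subunit of PI3-kinase gamma, was at 3838 and 4872 in WT against 2202 and 2113 in EpiKO (limma adjusted p = 0.0602, DESeq2 adjusted p = 6.35e-06). Blnk, the adaptor that links SYK to phospholipase C, was at 2214 and 2313 in WT against 868 and 1465 in EpiKO (limma adjusted p = 0.170, DESeq2 adjusted p = 0.0131). Vav3, an exchange factor for Rac, had a log2 fold change of 0.32 (SE 0.102).

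On the inhibitory side, limma called 1 of 16 tested genes of the ITIM and phosphatase list lower and 15 in neither direction. The median log2 fold change of the list was 0.02, and limma called 0.947% of all tested genes in either direction. DESeq2 called 1 higher, Dok2, and 1 lower, Ptpn22, or 12.5% against 6.85% of all genes. Ptpn22, a phosphatase that acts on SRC-family and SYK-family kinases, fell by 1.40 on the log2 scale from 806 ± 44.5 to 305 ± 17.4 (SD, n = 2), with an SE of 0.123 and an adjusted p of 0.0334 by limma. Dok2, a DOK adaptor, was at 1042 and 1406 in WT against 4211 and 2156 in EpiKO (limma adjusted p = 0.180, DESeq2 adjusted p = 0.00152). The log2 fold change of its relative Dok3 was -0.50 (SE 0.138) and that of Pag1, which anchors the kinase CSK, 0.42 (SE 0.177).

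Of 16 tested ITAM-coupled receptors outside the set, none passed with limma. At an unadjusted p under 0.05 there were 3 (18.8% against 15.6% of all tested genes), edgeR called 0, and DESeq2 called 1 higher and 1 lower, Treml6 and Siglec15 (12.5% against 6.85%). Treml6 was at 610 and 782 in WT against 1398 and 1548 in EpiKO (log2 fold change 1.09, limma adjusted p = 0.0567). Siglec15, the Tyrobp-coupled Siglec of osteoclasts, was at 71.9 and 48.8 in WT against 9.69 and 3.78 in EpiKO (log2 fold change -3.07, limma adjusted p = 0.0854). Klrk1, the NKG2D receptor, was at 18.5 and 21.0 in WT against 6.46 and 10.4 in EpiKO.

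Nor did any of 19 tested inhibitory or related receptors outside the set pass with limma. Here 7 had an unadjusted p under 0.05, or 36.8% against 15.6% of all tested genes. edgeR called 0, and DESeq2 called 1 higher and 3 lower, or 21.1% against 6.85%. Clec12a, an ITIM-bearing lectin, was at 4946 and 6720 in WT against 2653 and 1508 in EpiKO (log2 fold change -1.53, limma adjusted p = 0.113). The log2 fold change was -0.67 (SE 0.152) for the lectin gene Clec4a3 and -0.71 (SE 0.155) for Havcr2, which encodes TIM3. Cd200r1, part of the sort gate, was at 318 and 293 in WT against 1101 and 612 in EpiKO (limma adjusted p = 0.115).

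Ligands of these receptors and the enzymes that attach sialic acid gave 0 calls among 27 tested genes with limma and with edgeR. At an unadjusted p under 0.05 there were 6 (22.2% against 15.6% of all tested genes), and DESeq2 called 3 (11.1% against 6.85%). Cd200, the gene that K14Cre removes from keratinocytes in EpiKO, was among the 6 and among the 3 (DESeq2 adjusted p = 0.00323). Spn, the sialomucin CD43, was at 1647 and 2555 in WT against 732 and 473 in EpiKO (limma adjusted p = 0.0792). The sialyltransferase gene St3gal5 was at 47.5 and 88.3 in WT against 305 and 204 in EpiKO, and St3gal6 at 284 and 192 in WT against 117 and 127 in EpiKO. Of 20 tested genes downstream of ITAM signals in osteoclasts and phagocytes, limma called 3 lower, 0 higher and 17 in neither direction. Over all tested genes limma called 0.53% lower. DESeq2 called 6 of the 20 lower, or 30.0%, against 3.12% of all genes lower and 6.85% in either direction. The 3 called by limma were Nfatc1, already counted above for ITAM and SYK signalling, Ctsk and Atp6v0d2. The last 2 had log2 fold changes of -4.58 and -3.41 (limma adjusted p = 0.0329 and 0.0336). Acp5, at -2.64, was called by DESeq2 (adjusted p = 3.17e-13) and not by limma (adjusted p = 0.0540).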

How the data were processed

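RNA-seq was run on 2 WT and 2 EpiKO libraries of poly-A selected RNA. The submitters' processing notes name build mm10 and the tools STAR 2.5.2b, bcl2fastq 2.17, DESeq2 and featureCounts 1.5.0-p3. Annotation, strand setting and the treatment of multi-mapped reads were not given in these sources. The authors deposited a size-factor normalised signal for each gene, as the values themselves show: divided by what 1 read is worth in its library, 100% came out whole (tolerance 1e-06), which gave back the reads.

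Values were tested as log2(value + 1) by limma 3.58.1 in R 4.3.3 with trend and robust moderation. Only genes reaching 10 in 2 or more libraries entered the fit, Benjamini-Hochberg adjustment ran over 12463 genes, and adjusted p under 0.05 was a call. No covariate was used. edgeR 4.0.16 (quasi-likelihood, TMM) and DESeq2 1.42.0 (Wald) on the recovered reads were alternatives, with other pseudocounts, filters and scalings, another threshold, and each library left out. All tests are two-sided, and fold changes on this scale understate low genes. The code was tested on simulated data.

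The members and lists were chosen with earlier results of these data known. Every member is named, as are up to 4 genes per pathway list with the smallest p, Cd200 and Cd200r1. Of the pathway list entries 144 matched by symbol, 2 by a RefSeq synonym and 6 not at all. Exon lengths and positions are from GENCODE M21 on mm10, whose merged exons may not be those the authors counted. A search of receptor tails for signalling motifs was not made, because protein sequences were not used here.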

Additional observations from a re-analysis of the deposited data

How the results depend on the processing

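Across all genes, limma called 118 genes, limma without trend and robust moderation 38, DESeq2 854 (465 higher and 389 lower), and a threshold of 0.1 gave 428. Leaving out 1 library left between 0 and 4 calls. In the set, limma called 0 genes in either direction at every setting that kept its threshold, leave-one-out fits included. DESeq2 called 4 higher and 3 lower, and the threshold of 0.1 gave 1 higher (Pilrb1) and 2 lower (Cd72 and Slamf7). The cause of these differences between tools was not tested. No paired analysis was possible because the labels carry no replicate numbers.

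Of the 41 tested genes 23 kept the sign of their log2 fold change in all 4 leave-one-out fits, which the separation of groups fixes for 18 of them, and 18 changed it in at least 1. Under the 9 other settings 1 gene changed sign, Cd48, at -0.0058 with equal library totals. The lowest and highest log2 fold changes with 1 library left out were -0.0016 and 0.58 for Fcgr4, -0.013 and 0.18 for Fcer1g, -0.20 and 0.083 for Hcst, and -0.11 and 0.88 for Treml1. They were -0.040 and 0.44 for Siglec1, -0.74 and 0.19 for Siglece, -1.21 and 0.12 for Siglecg, -0.20 and 0.061 for Cd33, and -1.40 and 0.61 for Cd22. For Lilrb3 they were -0.38 and 0.036, for Lilra5 -0.53 and 1.37, for Cd300lb -0.16 and 0.062, and for Cd300ld -0.035 and 0.12. For Sirpb1a they were -0.029 and 1.27, for Lair1 -0.85 and 0.30, for Cd48 -0.070 and 0.12, for Slamf8 -0.33 and 1.06, and for Ptpn6 -0.097 and 0.21. These fits take the spread from the group that keeps both libraries. Depth limits Siglech, Siglecg, Siglecf, Treml1 and Slamf7, which had few reads.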
